A study of Homo sapiens with 18 samples.

Results

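Genes of glycolysis and of the hypoxia response were described across 3 bladder cancer cell lines carrying extra WWOX, extra AP-2α or AP-2γ, or both. The group held 39 genes, chosen by name as enzymes and transporters of glucose breakdown, targets of hypoxia-inducible factor, and HIF1A itself, and all 39 had a row among the 16575 genes of the table. Of these, 38 reached the level needed for testing (at least 5 CPM in at least 1 library), and they were tested among 13022 genes. The remaining member, the carbonic anhydrase CA12, did not exceed 1.70 CPM in any library.

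The data were CAGE-seq libraries, in which the capped 5′ end of each RNA is sequenced once, so that a gene's CPM (tag counts scaled to a common library total) do not scale with its length and levels can be set side by side between genes. There were 18 libraries, 6 variants of each line (CAL-29, HT-1376, RT-112). Each line was transduced first with a control or with WWOX, a tumour suppressor that binds other proteins through its WW domains, and then with a control, AP-2α or AP-2γ. The variants were KK (control, control), KA (control, AP-2α), KC (control, AP-2γ), WK (WWOX, control), WA (WWOX, AP-2α) and WC (WWOX, AP-2γ), with 3 libraries each, 1 per line. All variants, KK included, had passed through lentiviral transduction, and both transgenes were driven by a CMV promoter, with puromycin selecting for the first and G418 for the second. RT-112 was grown in RPMI-1640, HT-1376 in high-glucose DMEM and CAL-29 in DMEM, so that for genes of glucose use the line and its medium cannot be told apart.

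As background, glycolysis splits glucose into pyruvate, and lactate dehydrogenase and monocarboxylate transporters turn pyruvate into lactate and export it. When oxygen is low, prolyl hydroxylases no longer mark the HIF1A protein for destruction, and HIF1A raises many glycolytic genes together with genes of vessel growth, pH control and mitophagy. HIF1A is controlled mainly as a protein, which CAGE-seq does not measure. WWOX has been reported to bind HIF1A, which is the reason for following these genes here.

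Several libraries did not bear out their labels. The library labelled CAL-29 KC had a median correlation over genes of 0.94 with the HT-1376 libraries and 0.741 with the other CAL-29 libraries, while each of the other 17 was nearest to its own line. Among the 13 members whose ranges did not overlap between HT-1376 and CAL-29, that library lay within the HT-1376 range for 6 and within the CAL-29 range for 0, and it is shown apart below. WWOX itself was at 2.43 times KK in WK of CAL-29 but at 0.858 times in RT-112 and 0.831 times in HT-1376. The other WWOX libraries of CAL-29 held 69.3 CPM (WA) and 62.4 CPM (WC) of it against 63.7 CPM in KK. Whether transcripts that start in the vector are counted to the gene was not tested, for WWOX or for the AP-2 genes. These levels are therefore a limited check of the transgenes. In RT-112 the library labelled WA held 180 CPM of TFAP2C, the gene of AP-2γ, against 56.2 CPM in WK, and 25.3 CPM of TFAP2A against 20.3 CPM. Without WWOX, KC of RT-112 held 264 CPM of TFAP2C and KA 46.8 CPM of TFAP2A, against 57.95 and 18.01 CPM in KK. In HT-1376 TFAP2A, the gene of AP-2α, was at 69.9 CPM in WA and 76.9 CPM in WK. TFAP2C in HT-1376 was at 158, 172 and 214 CPM in KK, KA and KC. It was at 69.0, 98.0 and 163 CPM in WK, WA and WC. The part of TFAP2C in the WWOX comparison of HT-1376 was not tested. Variant names below are therefore the labels of the libraries. Of the epithelial markers EPCAM, CDH1, KRT8, KRT18 and KRT19 all were present in every library. The urothelial markers GATA3 (73.8 to 370 CPM), PPARG (3.69 to 33.1 CPM) and UPK2 (0.21 to 43.7 CPM) were also present in every library. A further urothelial marker, UPK3A, was at 0 CPM in 11 of 18 libraries, and the leukocyte markers PTPRC and CD3E had no row.

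A promoter of 300 bases was given by RefSeq (GRCh38.p14) for 33 of the 39 members. It was not given for SLC2A3, VEGFA, NDRG1, BNIP3L, SLC16A1 and HILPDA. The core of the hypoxia response element, ACGTG or GCGTG on either strand, was found in 24 of the 33 promoters (72.7%), against 48.4% of all 35116 promoters and 63.6% of those of genes that passed the filter on level. The narrower core ACGTG was found in 14 (42.4%), against 21.4% of all promoters and 27.1% of those past the filter. The AP-2 palindrome GCCNNNGGC was found in 8 (24.2%), against 23.2% and 32.8%. These are matches of letters and not sites of binding. The 250 bases before the annotated start are shown for 4 members that recur in the comparisons below, with each match to ACGTG or GCGTG, on either strand, in capitals. Matches on the 2 strands may overlap, as in CACGTG.
LDHA (chr11:18394313-18394562, plus strand): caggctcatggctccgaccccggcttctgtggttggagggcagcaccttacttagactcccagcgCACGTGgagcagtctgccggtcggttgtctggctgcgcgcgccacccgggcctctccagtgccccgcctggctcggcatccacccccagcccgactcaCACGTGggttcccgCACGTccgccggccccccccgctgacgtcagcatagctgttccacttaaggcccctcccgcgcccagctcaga
CA9 (chr9:35673678-35673927, plus strand): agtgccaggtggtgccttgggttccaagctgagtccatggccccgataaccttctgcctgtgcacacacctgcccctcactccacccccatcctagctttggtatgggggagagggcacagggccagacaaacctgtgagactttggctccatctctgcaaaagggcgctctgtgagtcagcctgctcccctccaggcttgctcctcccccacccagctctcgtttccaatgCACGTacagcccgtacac
ANGPTL4 (chr19:8363905-8364154, plus strand): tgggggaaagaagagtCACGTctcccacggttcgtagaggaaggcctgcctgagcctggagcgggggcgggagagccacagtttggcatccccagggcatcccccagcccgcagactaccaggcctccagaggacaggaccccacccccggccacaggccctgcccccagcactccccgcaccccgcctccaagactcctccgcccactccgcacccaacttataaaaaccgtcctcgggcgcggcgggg
BNIP3 (chr10:131981924-131982173, minus strand): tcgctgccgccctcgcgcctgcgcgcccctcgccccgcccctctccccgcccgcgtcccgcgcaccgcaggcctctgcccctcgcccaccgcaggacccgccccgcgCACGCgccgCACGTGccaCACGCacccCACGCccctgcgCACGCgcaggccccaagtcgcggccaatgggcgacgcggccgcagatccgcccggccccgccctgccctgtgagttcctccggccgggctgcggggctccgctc
LDHA held 5 matches before its start, the first beginning 185 bases and the last 73 bases upstream. BNIP3 held 6, between 143 and 104 bases upstream. CA9 and ANGPTL4 held 1 each, at 18 and 234 bases upstream, and ANGPTL4 was the only one of the 4 with an AP-2 palindrome in these 250 bases. The table gives 1 value per gene, so which start site was used in these cells was not analysed here.

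The lines differed widely in these genes, with 25 of the 38 members passing the test between RT-112 and HT-1376, 25 between RT-112 and CAL-29, and 21 between HT-1376 and CAL-29 (adjusted p under 0.05, limma, 17 libraries without the one labelled CAL-29 KC). Across all genes the same test called 61.9%, 71.5% and 61.0%, so the members' shares of 65.8%, 65.8% and 55.3% were near the background. The median of all genes was itself shifted by −0.43, −0.84 and −0.47 on the log2 scale in these comparisons, and differences are given relative to that median. What stood out was which members a line used. BNIP3, a receptor for mitophagy, had a median of 20.1 CPM in RT-112 and 61.4 CPM in CAL-29, and in HT-1376 it did not exceed 0.06 CPM, which is under the 0.158 to 0.213 CPM that 3 reads are worth. Reads of BNIP3 are uncertain because 44 pseudogenes carry its name in the annotation.

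**Figure D1:**
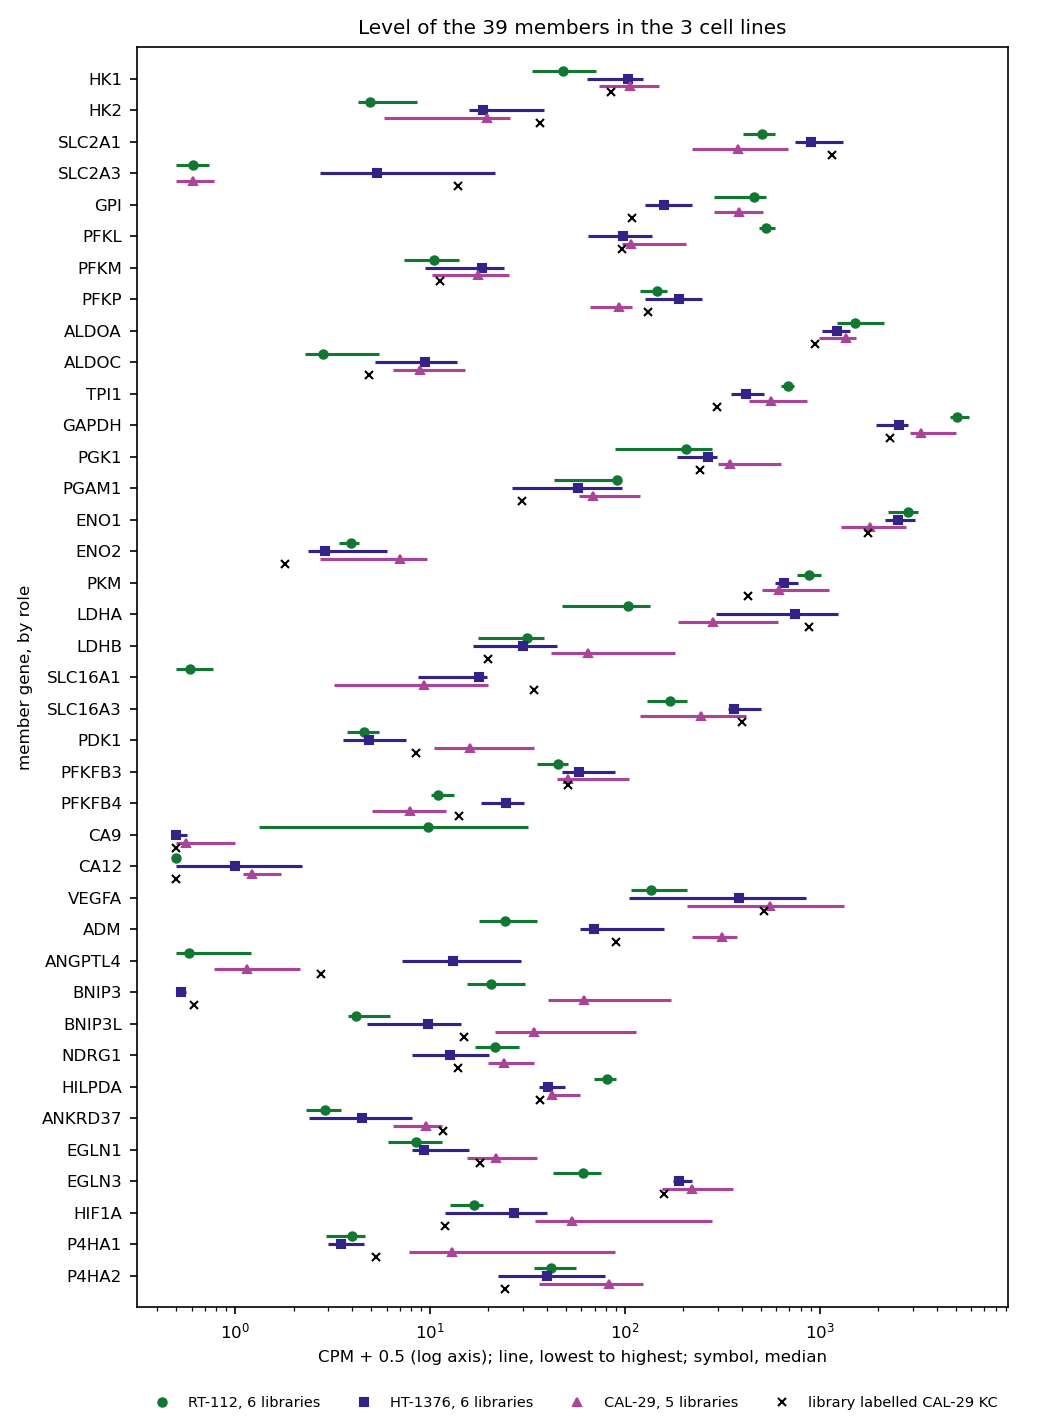
Level of each of the 39 members in the 3 lines, in CPM + 0.5 on a log axis, with a line from the lowest to the highest library, a symbol at the median and a cross for the library labelled CAL-29 KC. BNIP3 is near the left edge in HT-1376 (at most 0.06 CPM) and CA9 is spread over RT-112 (0.83 to 31.2 CPM).

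Of the glucose transporters, SLC2A1 was the main one in all lines, with medians of 505 CPM (RT-112), 907 CPM (HT-1376) and 381 CPM (CAL-29). SLC2A3, the neuronal-type transporter, ran from 2.24 to 21.2 CPM in HT-1376 and did not exceed 0.28 CPM in the other lines, and relative to all genes it differed by −2.98 in RT-112 against HT-1376 and by 3.91 in HT-1376 against CAL-29 (log2 of CPM + 0.5). PFKL, the liver form of phosphofructokinase, ran from 486 to 589.7 CPM in RT-112 and from 64.3 to 207 CPM in the other lines, and it lay 2.89 above HT-1376 and 2.90 above CAL-29 on the same scale. GAPDH had medians of 5079 CPM (RT-112), 2538 CPM (HT-1376) and 3325 CPM (CAL-29), though 65 pseudogenes share its name. ENO1, the main enolase, had a median of 2512 CPM in HT-1376, where the ranges of both genes overlapped.

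Lactate genes split the lines further. LDHA, which makes lactate from pyruvate, ran from 47.3 to 135 CPM in RT-112 and from 292 to 1244 CPM in HT-1376, a difference of −2.80 on the log2 scale (adjusted p = 1.07e-05, limma), or −2.38 relative to the median of all genes, which was not tested. The lactate carrier SLC16A1 did not exceed 0.27 CPM in RT-112 and had medians of 17.3 CPM in HT-1376 and 8.79 CPM in CAL-29, while the hypoxia-induced carrier SLC16A3 was present in every library (120 to 497 CPM). ANGPTL4, a secreted inhibitor of lipoprotein lipase, ran from 6.71 to 28.96 CPM in HT-1376, against at most 1.66 CPM elsewhere. ADM, the vasodilator peptide adrenomedullin, ran from 221 to 375 CPM in CAL-29, above the 58.2 to 159 CPM of HT-1376 and the 17.3 to 35.2 CPM of RT-112.

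HIF1A was low and even in RT-112, with 12.2, 16.5 and 13.8 CPM in KK, KA and KC and 16.2, 18.2 and 17.4 CPM in WK, WA and WC. HT-1376 held 11.5, 27.1 and 39.4 CPM of it without WWOX (KK, KA, KC) and 22.3, 31.2 and 25.8 CPM with WWOX (WK, WA, WC). CAL-29 held 279.8 CPM in KK and 52.9 in KA, against 50.2, 131 and 34.1 CPM in WK, WA and WC, with 11.5 CPM in the KC library shown apart. KK was thus the lowest library in RT-112 and HT-1376 and the highest in CAL-29, and within each line the WWOX and control libraries overlapped. Antisense genes (HIF1A-AS1 and HIF1A-AS3) overlap HIF1A, and whether the counting used strand is not given in the sources used here.

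**Figure D2:**
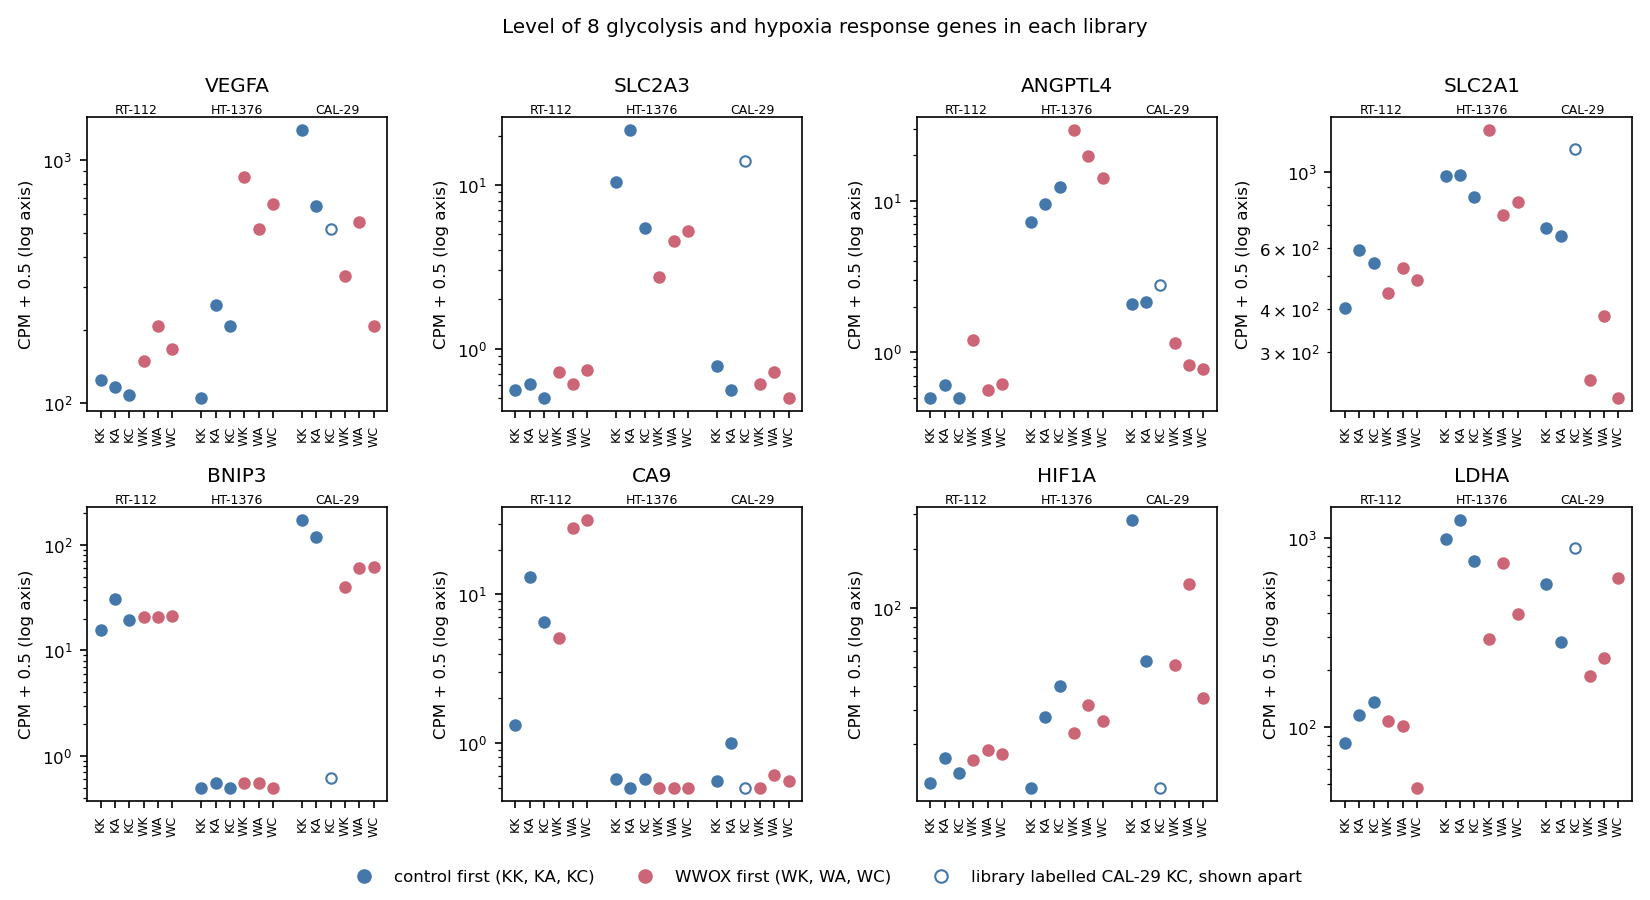
CPM + 0.5 on a log axis for 8 members in each of the 18 libraries, with control-first libraries in blue, WWOX-first libraries in red and the library labelled CAL-29 KC open. In HT-1376 the 3 WWOX libraries of VEGFA (519.6 to 851 CPM) lie above the 3 control libraries (105 to 253 CPM), and in CAL-29 they lie below.

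Each variant was set against KK to ask what WWOX, AP-2α, AP-2γ or their combination did over the 3 lines. No member passed the test in any of the 5 comparisons (0 of 38 in each, limma over 18 libraries with no term for the line), and none of the 13022 genes did (0.0% in each). At an unadjusted p under 0.05 there were 0 members in each comparison, and among all genes there were 38 for WK, 37 for WA and 84 for WC, beside 7 for KA and 11 for KC. With the recovered reads, DESeq2 called 3, 3 and 9 genes for WK, WA and WC, and 1 and 5 for KA and KC, no member among them. All 5 comparisons share the same 3 KK libraries, and in each line they share a single one. The 18 libraries include the one labelled CAL-29 KC. With no term for the line, differences between lines enter the spread, so 0 calls say little about changes within lines. With the line as a term, limma gave 506, 209 and 1399 genes at an unadjusted p under 0.05 for WK, WA and WC. For KA and KC it gave 63 and 550, and in each comparison still 0 genes passed after adjustment.

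The mean change of the 38 members, on the log2 scale of CPM + 0.5, ran in opposite directions between the lines. For WK it was 0.29 (RT-112), 0.07 (HT-1376) and −0.57 (CAL-29), beside medians of all genes of 0.03, −0.15 and −0.15. In KA/KK the mean change was 0.24, 0.30 and −0.45, beside 0.01, 0.16 and −0.21. In WA/KK it was 0.34, 0.24 and −0.44, beside 0.01, 0.00 and 0.03. The mean of the members thus lay above the median gene in RT-112 and HT-1376 and below it in CAL-29 in these comparisons. A mean and a median are unlike measures, and a few members can pull the mean. In CAL-29 the median of the members was −0.47 for WK, −0.26 for KA and −0.41 for WA. The mean of all genes for KA in CAL-29 was −0.35.

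In WC/KK the mean change was 0.18, 0.03 and −0.66, beside medians of all genes of 0.00, −0.17 and −0.50. The median of the members for WC in CAL-29 was −0.36, which lay above the median of all genes. For KC the mean change was 0.22 (RT-112) and 0.04 (HT-1376), beside 0.12 and −0.01, and −0.91 for the library shown apart. Over the lines the mean change was −0.07 ± 0.45 (SD, n = 3) for WK, 0.05 ± 0.42 for WA and −0.15 ± 0.45 for WC, and 0.03 ± 0.42 for KA and −0.21 ± 0.61 for KC. The mean and SD for KC include the library shown apart. Each mean was smaller than the spread between lines. Without CAL-29 the means were 0.18, 0.29 and 0.11 for WK, WA and WC, and 0.27 and 0.13 for KA and KC. With TMM scaling the means of CAL-29 kept their sign and were −0.38, −0.48 and −0.16 for WK, WA and WC and −0.12 for KA.

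**Figure D3:**
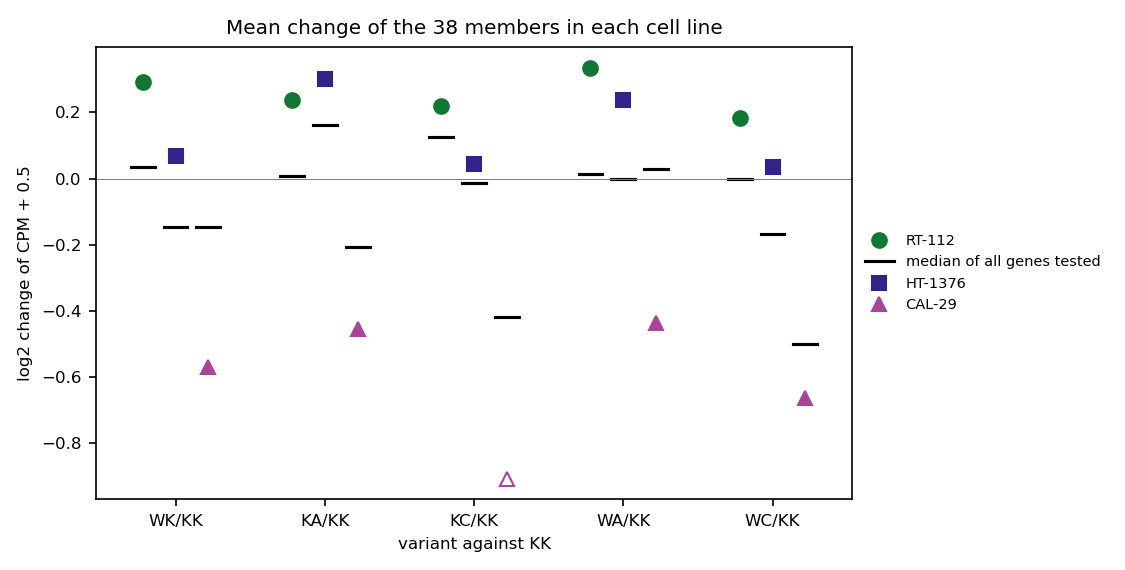
Mean log2 change of CPM + 0.5 of the 38 members against KK, 1 symbol per line and comparison, with a black bar at the median of all genes tested and the library labelled CAL-29 KC open. The CAL-29 symbols (−0.44 to −0.91, the lowest being the open one) lie below 0 in all 5 comparisons and the symbols of RT-112 (0.18 to 0.34) above.

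The single KK library of a line takes part in every change of that line. In CAL-29 the KK library was the highest of 5 for 15 of 38 members (39.5%), against 28.8% of all genes, and the lowest for 1, against 14.6%. In RT-112 it was the lowest of 6 for 13 members (34.2%), against 15.3%, and the highest for 0, against 6.86%. In HT-1376 it was the lowest for 8 (21.1%), against 16.1%, and the highest for 3, against 13.2%. The part of the KK libraries in the line-wise changes was not tested.

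Changes of 2-fold or more were few in RT-112, with 2 of 38 members for WK (1.7% of all genes), 3 for WA (4.73%), 3 for WC (6.75%), 1 for KA (1.83%) and 1 for KC (2.31%). HT-1376 had 7 such members for WK (22.2% of all genes), 8 for WA (15.8%), 6 for WC (19.8%), 4 for KA (5.74%) and 2 for KC (10.8%). CAL-29 had 13 for WK (24.5% of all genes), 7 for WA (6.33%), 15 for WC (38.8%) and 9 for KA (24.9%), and the library labelled KC had 13 (43.7%). In CAL-29 all 7 of these members for WA were lower, where 3.72% of all genes were higher and 2.60% lower by 2-fold. For WK 12 were lower and 1 higher, where 8.30% of all genes were higher and 16.2% lower, and for WC all 15 were lower, where 6.46% were higher and 32.3% lower.

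By role, the 5 lactate and pyruvate genes were LDHA, LDHB, SLC16A1, SLC16A3 and PDK1, a kinase that inhibits pyruvate dehydrogenase. All 5 were lower in WK than in KK of CAL-29, by −1.04 to −2.64 on the log2 scale. The 6 genes of lower glycolysis stayed between −0.19 and 0.40 in the same comparison. In RT-112 the 6 lower glycolysis genes moved between 0.01 and 0.26 and the 4 transporters and hexokinases between 0.14 and 0.50. In HT-1376 4 of the 5 lactate and pyruvate genes were lower in WK, down to −1.75 for LDHA. The fall in CAL-29 was not limited to libraries with WWOX. For KA/KK of that line 4 of the 5 lactate and pyruvate genes were lower, with a mean change of −1.04. For WA/KK all 5 were lower, and for WC/KK 4 were. The 2 collagen hydroxylases had lower means there, −2.27 for WK and −1.76 for KA. All these CAL-29 values share its single KK library. These changes set 1 library against 1 and have no test.

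**Figure D4:**
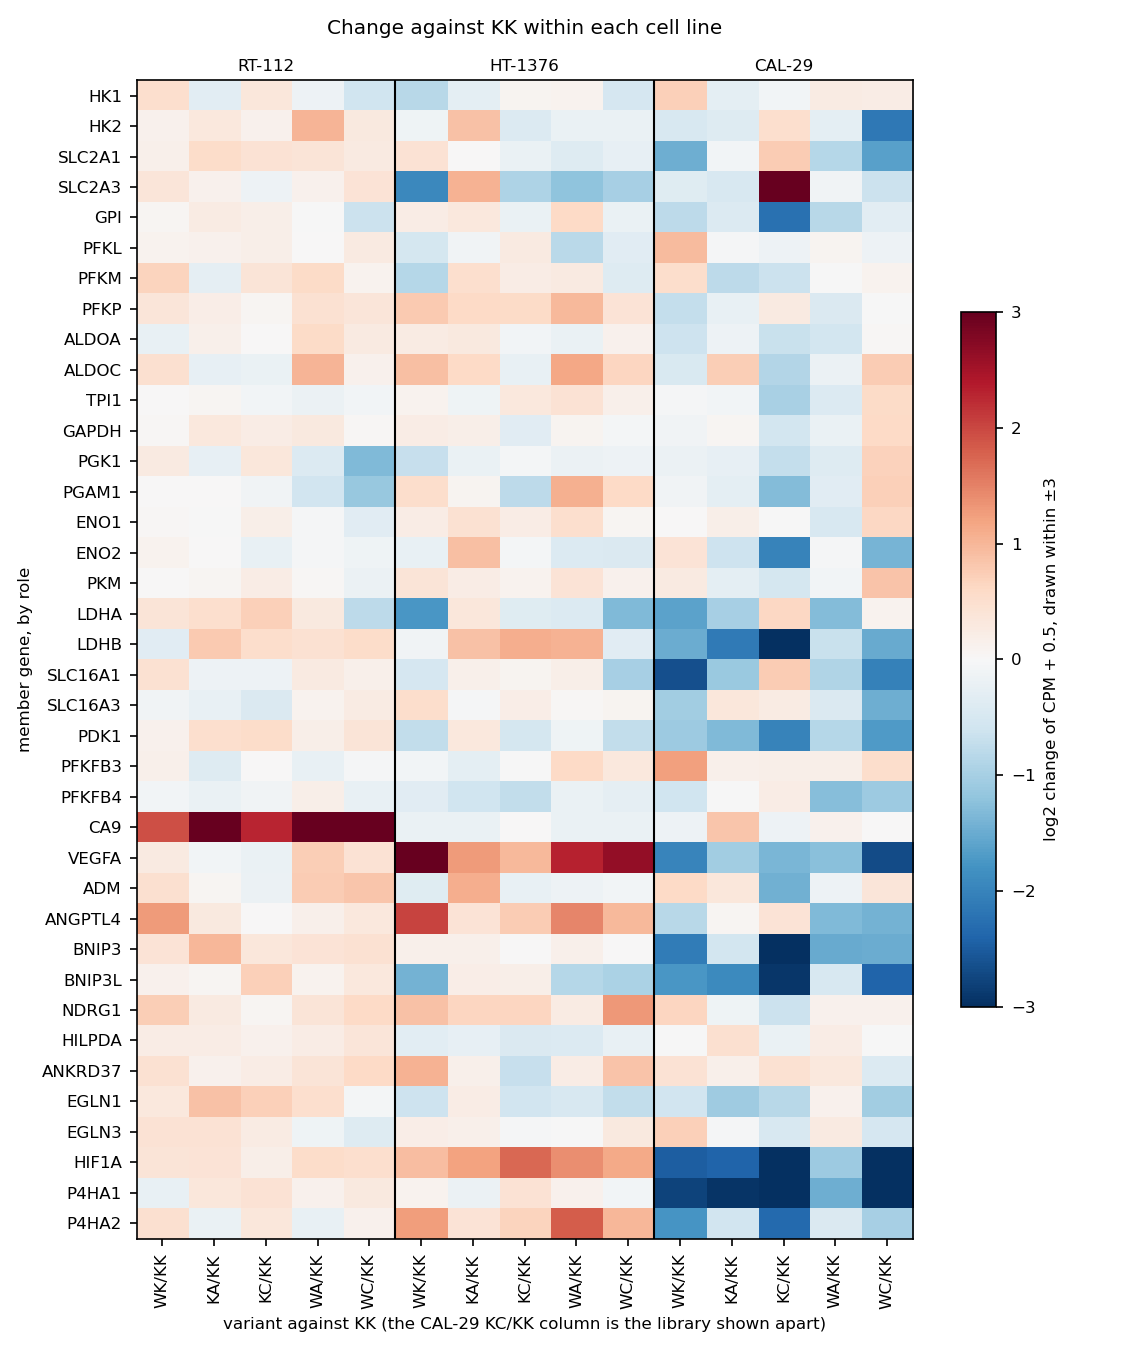
Log2 change of CPM + 0.5 against KK for the 38 members (rows, by role) in each line and comparison (columns), red for higher and blue for lower, with colours ending at ±3. VEGFA is red throughout HT-1376 and blue throughout CAL-29, and CA9 is red throughout RT-112.

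The largest mean changes came from few members. CA9, the membrane carbonic anhydrase of hypoxic cells, was at 0.83, 12.5 and 5.99 CPM in KK, KA and KC of RT-112 and at 4.57, 27.6 and 31.2 CPM in WK, WA and WC, and did not exceed 0.50 CPM in the other lines. Every other variant of RT-112 was above KK, and the libraries labelled WA and WC were highest. These 2 libraries held 18.95 and 18.45 CPM of WWOX, against 26.04 CPM in KK, and 180 and 143 CPM of TFAP2C. Its changes against KK in RT-112 on the log2 scale were 3.29 for KA and 2.29 for KC, and 1.93, 4.40 and 4.58 for WK, WA and WC. CA9 overlaps ARHGEF39 on the other strand, and reads of the pair cannot be told apart where strand is not used.

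P4HA1, a collagen prolyl hydroxylase, was at 89.0 CPM in KK of CAL-29, 11.1 in KA, 12.5 in WK, 32.1 in WA and 7.31 in WC, and at 2.45 to 4.17 CPM in RT-112 and HT-1376. BNIP3L, a mitophagy receptor related to BNIP3, was at 114 CPM in KK of CAL-29, 29.9 in KA, 33.7 in WK, 81.5 in WA and 21.0 in WC. Both were highest in KK and next highest in WA. BNIP3L was also lower with WWOX in HT-1376, at 12.2, 14.0 and 13.8 CPM in KK, KA and KC and 4.24, 6.45 and 6.08 in WK, WA and WC, without overlap.

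LDHA was at 982.6, 1244 and 758 CPM in KK, KA and KC of HT-1376 and at 292, 735 and 394 CPM in WK, WA and WC. CAL-29 held 568 and 282 CPM in KK and KA against 187, 230.4 and 611 CPM with WWOX, and RT-112 held 82.1, 116 and 135 CPM in KK, KA and KC against 107, 101 and 47.3 CPM. The WWOX libraries lay below the controls in HT-1376 and overlapped with them in the other lines. NDRG1, a stress-responsive gene, was at 16.6, 20.3 and 17.3 CPM in KK, KA and KC of RT-112 and at 28.2, 21.7 and 25.4 in WK, WA and WC. In HT-1376 it was at 7.63, 12.3 and 12.3 CPM against 14.3, 9.20 and 19.6, and in CAL-29 at 21.4 and 19.4 CPM against 33.7, 23.5 and 23.6. NDRG1 was higher with WWOX without overlap in RT-112 and CAL-29, and overlapped in HT-1376.

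ADM was at 74.8, 159 and 64.4 CPM in KK, KA and KC of HT-1376 and at 58.2, 67.5 and 70.9 CPM in WK, WA and WC, with KA alone standing high. ALDOC, an aldolase, was at 2.22, 1.79 and 1.87 CPM in KK, KA and KC of RT-112 and at 3.32, 4.97 and 2.47 in WK, WA and WC, and in HT-1376 at 5.66, 8.85 and 4.75 against 10.9, 13.4 and 9.09. In both lines its WWOX libraries were above all control libraries, and in CAL-29 (8.41 and 14.3 against 5.97, 7.36 and 14.7 CPM) they overlapped. PFKFB4, which makes the activator of phosphofructokinase, was at 11.6 CPM in both KK and KA of CAL-29 and at 7.46 in WK, 4.53 in WA and 5.17 in WC, without overlap, while in RT-112 (9.65 to 12.7 CPM) and HT-1376 (17.8 to 29.9 CPM) WWOX and control libraries overlapped.

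With the line and both transductions as terms, no member passed the test for WWOX, AP-2α or AP-2γ (0 of 38 each, 17 libraries, limma), and none of the 13022 genes did (0.0% each). Unadjusted p was under 0.05 for 4 members and 1598 genes for WWOX, for 1 member and 199 genes for AP-2α and for 0 members and 343 genes for AP-2γ. For WWOX these were NDRG1 (0.39 ± 0.16, SE, log2), ANKRD37 (0.49 ± 0.20), PFKFB3 (0.32 ± 0.15) and LDHA (−0.70 ± 0.28), with adjusted p of 0.358, 0.36, 0.407 and 0.358. For AP-2α it was CA9 (1.12 ± 0.50, adjusted p = 1.00). DESeq2 called 225 genes for WWOX, 1 for AP-2α and 12 for AP-2γ, no member among them.

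Within a line, WWOX was compared over the 3 AP-2 backgrounds. Of the WWOX tests only those by line called members, at shares no higher than those of all genes. In CAL-29 the library labelled KC was left out, so 3 WWOX libraries were set against 2 control libraries. Its WC library had no AP-2γ control and was adjusted by an AP-2γ term shared with the other lines. In HT-1376 VEGFA rose and SLC2A3 fell (2 of 38 members, beside 1118 of 13022 genes or 8.59%). In CAL-29 no member passed (0 of 38, beside 77 genes or 0.591%), with 7 members at an unadjusted p under 0.05. In RT-112 no member and no gene passed (0.0%), with 2 members and 979 genes at an unadjusted p under 0.05. The WWOX effect differed between the lines for 1 member, VEGFA, beside 393 genes (3.02%). Libraries of a line with and without WWOX are single transductants, so the p-values measure a spread between libraries. That spread was estimated in 1 fit over the 17 libraries and is shared by the lines, so it is not that of a single line. In a bulk library fewer cells with a transcript and less of it per cell cannot be told apart.

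VEGFA, the main growth factor of blood vessels (chromosome 6, 43770184 to 43786487, plus strand, GRCh38), was at 105, 253 and 207 CPM in KK, KA and KC of HT-1376 and at 851, 519.6 and 659 CPM in WK, WA and WC. The lowest WWOX library was above the highest control library, and VEGFA rose by 1.91 ± 0.38 (SE) on the log2 scale (adjusted p = 0.00913, limma). CAL-29 held 1332 and 647 CPM of it in KK and KA and 335, 559 and 208 CPM with WWOX, again without overlap but with WWOX lower (−1.39 ± 0.43, adjusted p = 0.18). In RT-112 it was at 124, 117 and 108 CPM in KK, KA and KC and at 148, 207 and 167 in WK, WA and WC (0.57 ± 0.38, adjusted p = 0.836). The groups did not overlap in RT-112 either, and the difference of the WWOX effect between the 3 lines had an adjusted p of 0.0221. In HT-1376 the adjusted p of VEGFA was 0.0216 without the pair carrying AP-2α, 0.0515 without the pair carrying AP-2γ and 0.135 without KK and WK, where the difference was 1.35. The test between lines was lost without the AP-2γ pairs (adjusted p = 0.116) and without KK and WK (0.293), and was 0.0686 with all 18 libraries.

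SLC2A3 (chromosome 12, 7919230 to 8019007, minus strand) was at 9.93, 21.2 and 4.96 CPM in KK, KA and KC of HT-1376 and at 2.24, 4.03 and 4.71 CPM in WK, WA and WC. The groups did not overlap, though KC and WC were close, and SLC2A3 fell by 1.42 on the log2 scale of CPM + 0.5 (SE 0.40, adjusted p = 0.0439, limma). The call was lost without the AP-2α pair (adjusted p = 0.219), without KK and WK (0.363), with all 18 libraries (0.373), with a pseudocount of 0.05 CPM (0.165), with quantile normalization (0.0791), with edgeR (0.128) and with DESeq2 (0.161).

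Some other members in HT-1376 were higher with WWOX without passing the test, namely ANGPTL4, P4HA2, ANKRD37 and PGAM1 below. Others went the opposite way, with every WWOX library of PFKL, ENO2, LDHA and BNIP3L below every control library. ANGPTL4 was at 6.71, 9.08 and 11.8 CPM in KK, KA and KC and at 28.96, 19.3 and 13.6 in WK, WA and WC, without overlap (1.09 ± 0.35, adjusted p = 0.0688, limma). P4HA2, a collagen hydroxylase, was at 21.97, 29.3 and 35.0 CPM against 53.5, 78.8 and 44.05 (1.00 ± 0.34, adjusted p = 0.0814). ANKRD37, a small target of HIF1A, was at 3.42, 3.86 and 1.91 CPM against 7.63, 4.09 and 6.63 (0.90 ± 0.32, adjusted p = 0.0934). With TMM scaling, which moved the median of all genes in this comparison from −0.13 to 0.00, these 3 passed as well. PGAM1, a mutase of lower glycolysis, was at 45.2, 48.2 and 25.9 CPM against 65.8, 95.8 and 68.7 (0.97 ± 0.32, adjusted p = 0.0774), with 13 pseudogenes of its name.

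In all, 6 of 38 members had every WWOX library above every control library in HT-1376, against 12.8% of all genes, and 5 had every WWOX library below (SLC2A3, PFKL, ENO2, LDHA and BNIP3L), against 22.8%. The 6 were ALDOC, PGAM1, VEGFA, ANGPTL4, ANKRD37 and P4HA2. HIF1A did not (0.17 ± 0.58, adjusted p = 0.881). In the same comparison both fibroblast markers with a row rose, COL1A2 from 1.49 to 4.37 CPM in the controls to 18.9 to 46.1 CPM with WWOX (3.14 ± 0.32, adjusted p = 0.000141) and COL1A1 (1.77 ± 0.48, adjusted p = 0.0369). Their sum was 3.82 to 12.6 CPM in control and 36.3 to 59.3 CPM in WWOX libraries, and PDGFRB had no row. KRT19 rose (2.67 ± 0.53, adjusted p = 0.00831), the endothelial gene CDH5 fell from 2.10 to 4.11 CPM to 0.19 to 0.71 CPM (adjusted p = 0.003, limma), and the sum of the 5 epithelial markers was 5273 to 6101 CPM in control and 3863 to 4519 CPM in WWOX libraries. The sum of the 4 urothelial markers was 138 to 255 CPM in control and 80.5 to 96.3 CPM in WWOX libraries, also without overlap. Their part in the changes of VEGFA and SLC2A3 was not tested.

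**Figure D5:**
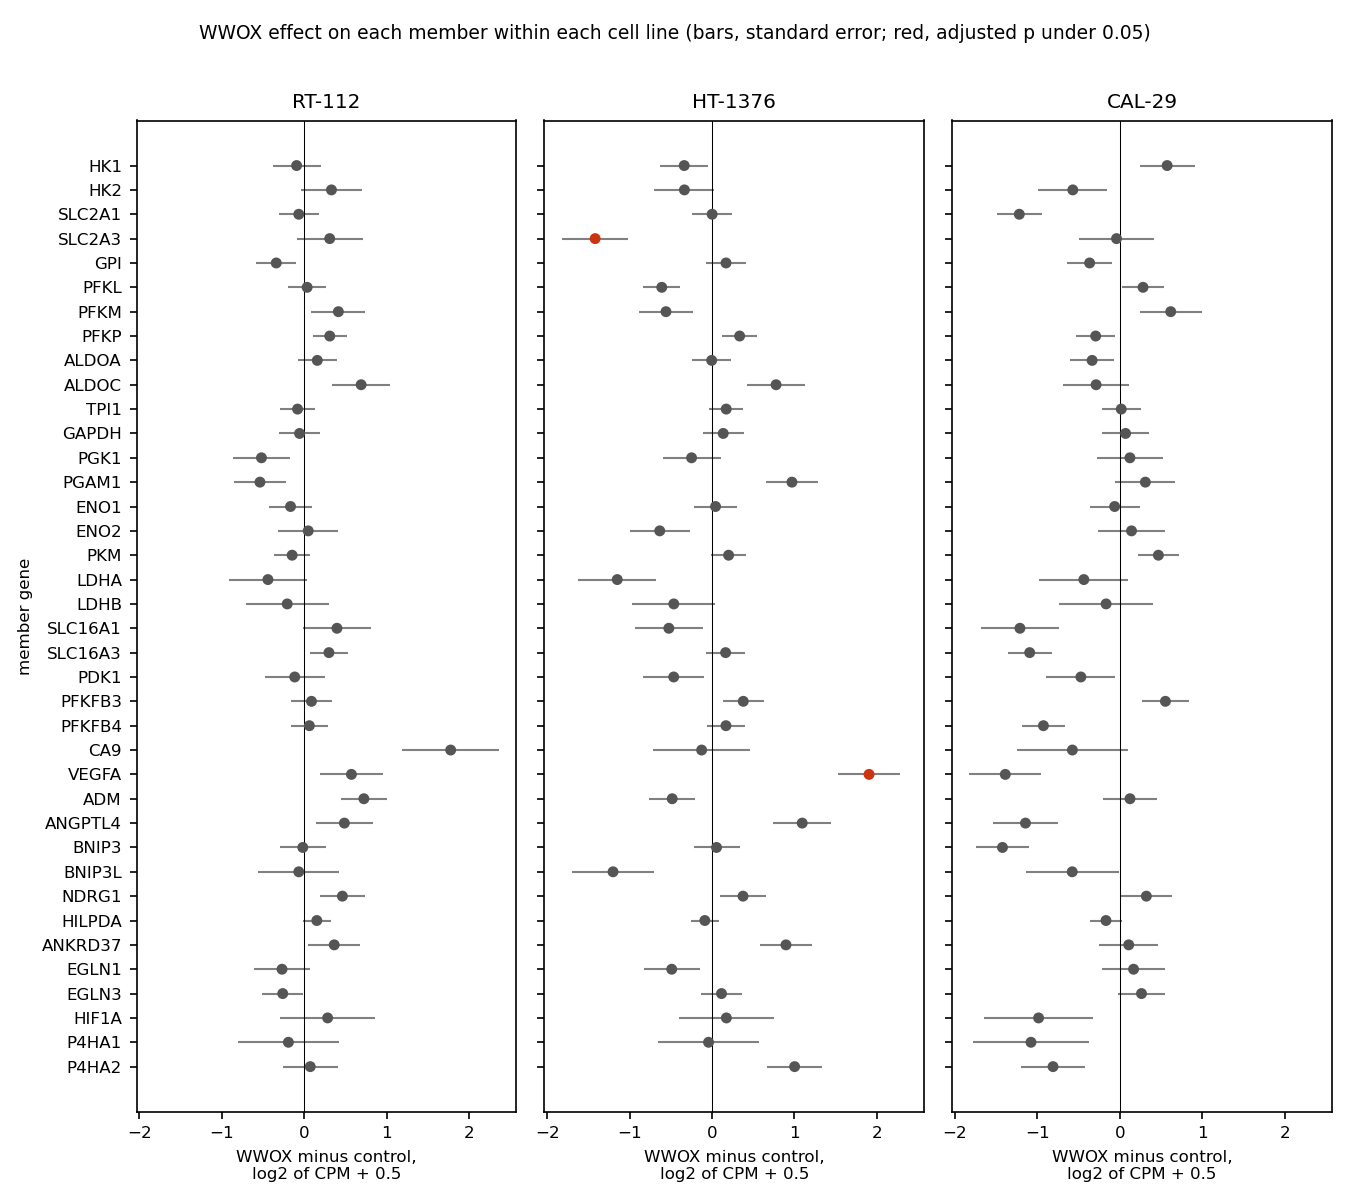
WWOX effect on each of the 38 members within each line, as WWOX minus control in log2 of CPM + 0.5 with its standard error, red where the adjusted p was under 0.05. VEGFA (1.91) and SLC2A3 (−1.42) in HT-1376 are the 2 red points, and VEGFA is at −1.39 in CAL-29.

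In CAL-29 the members nearest to the threshold were lower with WWOX. BNIP3 was at 172 CPM in KK and 118 in KA, and at 39.7 in WK, 59.7 in WA and 61.4 in WC (−1.42 ± 0.32, adjusted p = 0.0717, limma). SLC2A1 was at 685 and 652 CPM against 249.6, 381 and 221 (−1.22 ± 0.28, adjusted p = 0.0722), and SLC16A3 at 333 and 419.9 CPM against 162, 246 and 120 (−1.09 ± 0.27, adjusted p = 0.0855). In each of these 3 the WWOX libraries were below both control libraries. DESeq2 called BNIP3, SLC2A1, SLC16A3 and VEGFA, beside 297 of all genes. Without KA and WA the control of CAL-29 is KK alone, assumed to vary like the other groups, and 7 members passed, all lower, beside 776 of all genes, of which 556 were lower and 220 higher. In all, 6 members had every WWOX library below the controls, against 9.8% of all genes, namely SLC2A1, SLC16A3, PFKFB4, VEGFA, ANGPTL4 and BNIP3. Another 3 lay above, against 9.0% (HK1, PFKFB3 and NDRG1). The sum of both fibroblast markers was 9.74 to 13.8 CPM in control and 5.46 to 9.71 CPM in WWOX libraries. In these libraries COL1A2 did not exceed 0.06 CPM, so the sum is nearly all COL1A1. The sum of the 5 epithelial markers was 4190 to 4975 CPM in control and 5599 to 7160 CPM in WWOX libraries. Neither sum overlapped between the groups, though the fibroblast sums nearly met (9.74 and 9.71 CPM). The sum of the 4 urothelial markers was 123 to 198 CPM in control and 108 to 420 CPM in WWOX libraries, with overlap. The part of these markers in the differences was not tested.

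In RT-112 7 members had every WWOX library above the controls, against 9.48% of all genes (PFKP, ALDOC, SLC16A1, VEGFA, ADM, NDRG1 and ANKRD37), and 0 lay below, against 11.5%. SLC16A1 was there at 0 to 0.06 CPM against 0.12 to 0.27, which is about the level of 3 reads. ADM was at 19.6, 20.3 and 17.3 CPM in KK, KA and KC and at 27.3, 33.3 and 35.2 in WK, WA and WC (0.72 ± 0.28, adjusted p = 0.555, limma). CA9 gave the largest difference, 1.78 ± 0.59 (adjusted p = 0.503), with WK below KA and KC, and of the tools run only DESeq2 called it (adjusted p = 0.0183). Of the fibroblast markers COL1A2 was at 0 CPM in every library of RT-112. COL1A1 was at 3.44 to 4.31 CPM in control and 6.75 to 7.60 CPM in WWOX libraries. The sums of the epithelial and of the urothelial markers overlapped between control and WWOX libraries. The part of the markers in these differences was not tested.

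Other genes of these pathways, taken from 4 lists, passed the test only in HT-1376 among the WWOX comparisons. Of 29 tested other hypoxia-inducible genes 4 rose and 1 fell, where 8.59% of all genes were called (548 higher and 570 lower). GYS1, a glycogen synthase, fell by 0.82 on the log2 scale (adjusted p = 0.0075, limma), from 52.7 to 61.4 CPM in controls to 30.7 to 33.4 CPM. AK4, a mitochondrial adenylate kinase, rose from 0.07, 1.87 and 3.76 CPM to 6.31, 19.7 and 5.97 (2.42 ± 0.58, adjusted p = 0.0223), and DDIT4, an inhibitor of mTORC1, from 22.1 to 26.9 CPM to 76.9 to 103 CPM (1.88 ± 0.49, adjusted p = 0.032). Of 12 tested HIF regulators 1 fell, CITED2, a competitor of HIF1A for its coactivator (−1.36 ± 0.34, adjusted p = 0.0285). Of 11 other glycolytic isoforms and pyruvate enzymes and of 7 pentose phosphate genes 0 passed.

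Over the 17 libraries, with each line centred on its mean, the genes most like HIF1A were CAPN7 (Pearson r = 0.934), DYNC1I1 (0.92), GLCE (0.915), ITGA2 (0.913) and RICTOR (0.909). Among members P4HA1 was nearest (0.875), in place 41 of all genes, followed by LDHB (0.738). The values share libraries and depth, and the KK library of CAL-29 was the highest of its line for HIF1A, P4HA1 and LDHB alike.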

How the data were processed

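CAGE-seq was performed on 18 libraries, 1 per variant and line, so that the replicate of a variant is the cell line. The authors mapped single-end reads to hg38 with BWA and then HISAT2 2.0.5, called tag clusters, and deposited CPM (tag counts scaled to a common library total) for each gene. The cluster-to-gene assignment, the annotation and the use of strand are not given in the sources used here. Up to 1000 reads, at least 99.97% of values in each library were whole multiples of 1 read, within the deposited rounding plus 0.02 reads, and the recovered reads summed to 13357102 to 17958572 per library, where 3 reads are worth 0.158 to 0.213 CPM. Of 16575 gene identifiers 16553 matched a symbol.

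Values were compared as log2(CPM + 0.5), which understates changes of low genes, over the 13022 genes that reached 5 CPM in 1 or more libraries, with limma 3.58.1 (R 4.3.3) and Benjamini-Hochberg adjustment over all of them (threshold 0.05). Variants were set against KK over 18 libraries without a term for the line. The effects of WWOX and AP-2 over lines, of WWOX within lines and of the line were fitted on 17 libraries, leaving out the one labelled CAL-29 KC. Deviations of libraries of a line from the variant means correlated at 0.588 to 0.915 (at 0.0363 for the lowest pair with CAL-29 KC), and the labels name the shared line. edgeR 4.0.16, DESeq2 1.42.0 and limma-voom on recovered reads, other pseudocounts, filters and scalings, and leaving out each line or AP-2 background were alternatives. The fits were also run on simulated counts with the same WWOX change in every line. WWOX effects that differ between lines and changes of low genes were not simulated.

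The members and lists were chosen with earlier results of these data known. Named were the 2 members with the largest mean rise and fall in each comparison, members past or nearest the threshold, and up to 3 genes of each list. Promoters were from RefSeq (GRCh38.p14), 250 bases before to 50 after the start.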

Additional observations from a re-analysis of the deposited data

Results flagged for a closer look

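Within a line, a library standing far from the other 5 (4 in CAL-29) was looked for in each member. This picked 10 of 114 groups (8.77%), and chance picks about 1 in 20, or 5.7. HK2, a hexokinase, stood apart in each line, at 8.10 CPM in RT-112 WA (others 3.77 to 4.79), at 37.96 CPM in HT-1376 KA (others 15.3 to 20.4) and at 5.34 CPM in CAL-29 WC (others 18.1 to 25.2). HT-1376 KA was also highest for ADM (159 CPM, others 58.2 to 74.8) and for ENO2 (5.50 CPM, others 1.86 to 2.70). In HT-1376 WK the lowest value was that of PGK1 (185 CPM, others 259 to 298). In RT-112 GPI was lowest in WC (285 CPM, others 445 to 531) and ANGPTL4 highest in WK (0.71 CPM, others 0 to 0.12). In CAL-29 PFKL was highest in WK (207 CPM, others 96.7 to 114) and CA9 highest in KA (0.50 CPM, others 0 to 0.11).

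The WWOX effect on VEGFA differed between the lines (adjusted p = 0.0221, limma), with 1.91 in HT-1376, 0.57 in RT-112 and −1.39 in CAL-29 on the log2 scale.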

How the results depend on the processing

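The count of members past the threshold for WWOX within HT-1376 was 2, and it was 1 with a pseudocount of 0.05 CPM and with all 18 libraries, 4 with quantile normalization, limma-voom and DESeq2, 5 with TMM scaling, and 0 to 1 when an AP-2 background was left out. For CAL-29 it was 0, against 1 with a pseudocount of 2 CPM and with limma-voom, 2 with quantile normalization and with all 18 libraries, 4 with DESeq2, and 0 to 7 when a background was left out. For RT-112 it was 0, against 1 with DESeq2. For the difference between lines it was 1, against 2 with quantile normalization, 0 with all 18 libraries, 7 with DESeq2, and 0 to 1 when a background was left out. BNIP3 in CAL-29 reversed to 1.19 (adjusted p = 0.737, limma) with all 18 libraries, among them the one labelled CAL-29 KC, where BNIP3 was at 0.12 CPM. VEGFA in HT-1376 passed in 11 of 13 alternatives and SLC2A3 in 6 of 13. Apart from these, the cause was not tested.

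With the cell line as a replicate block, which pairs libraries of a line, 0 members passed in each comparison with KK, as without it, and 0 also with edgeR. Without the block the additive effects also gave 0. Leaving out a line moved the mean change between −0.25 and 0.18 for WK, −0.10 and 0.29 for WA, −0.32 and 0.11 for WC, −0.11 and 0.27 for KA, and −0.43 and 0.13 for KC. The 0.13 for KC is without CAL-29, and so without the library labelled CAL-29 KC. Leaving out the library labelled RT-112 WA, chosen after seeing the data, left 0 calls. With 1 library per variant and line, values of single libraries have no replicate, and levels near 3 reads cannot be ranked.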
